A study of Mus musculus with 14 samples.

Results

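The data described here are the T cell levels of 10 mouse genes of the β-catenin pathway and of adherens junctions: Ctnnb1, Apc, Axin1, Axin2, Gsk3b, Cdh1, Ctnna1, Ctnnbip1, Ctnnd1 and Tcf7l2. They were chosen by gene symbol as 10 rows of the 24091 genes counted, and all 10 were among the 12248 genes with enough reads to be tested. T cells were sorted from the spleen of chronic myeloid leukemia (CML) mice, 200000 cells per sample, and each mouse gave 1 mRNA-seq library. The 2 groups were Mir142+/+BCR-ABL mice, the model of chronic phase (CP CML, n = 8), and Mir142−/−BCR-ABL mice, the model of blast crisis (BC CML, n = 6). The question for these genes was how their mRNA levels differed between T cells with and without miR-142.

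Mice of both groups were 6 to 10 weeks old, on the CD45.2 C57Bl/6j background, and carried the SCLtTA/BCR-ABL transgenes. In these mice a tetracycline-controlled activator under an enhancer of the stem cell gene Scl (Tal1) drives BCR-ABL, the fusion kinase of CML, once tetracycline is withdrawn, which was done for 3 weeks in both groups. Mir142 was missing from the germline in the BC CML mice, hence from every cell and not from T cells alone. The library names carry 1 number prefix in all CP CML samples and another in all BC CML samples, so whatever the prefix marks and the genotype cannot be told apart. Nonleukemic T cells of either genotype were not analysed here.

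β-catenin, the product of Ctnnb1, has a role in the nucleus and a role at the membrane. In the cytoplasm, a destruction complex built on the scaffolds APC, AXIN1 and AXIN2 lets casein kinase 1 and GSK3β phosphorylate β-catenin, which is then ubiquitylated and degraded. WNT signalling through Frizzled receptors and LRP5 or LRP6 stops this, and the β-catenin that accumulates joins TCF/LEF factors on DNA. At adherens junctions, β-catenin and p120-catenin (Ctnnd1) bind the tail of E-cadherin (Cdh1), and α-catenin (Ctnna1) links them to actin. T cells use TCF1 (Tcf7) and LEF1 (Lef1) in thymic development and in naive and memory cells. β-catenin is controlled largely at the level of the protein, which was not measured in these libraries.

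Library totals ranged from 15703702 to 19914531 reads in CP CML (median 17186326) and from 16145537 to 19399720 reads in BC CML (median 18746069.5). Levels are given as CPM, read counts scaled to a library of 1000000 reads after TMM scaling of the library sizes, and fold changes are those of edgeR's quasi-likelihood test with adjusted p-values over all 12248 genes. The deleted gene was as labelled, with 302 to 650 reads of Mir142 in the CP CML libraries and 0 reads in each BC CML library. Of 10 T cell identity markers, all were tested, and their summed level was 3896 to 4462 CPM in CP CML and 4759 to 5243 CPM in BC CML. Of these markers 5 were higher, with Thy1 at 775 and 1229 CPM on average, 1 (Cd247) was lower, and Cd3e, Cd3d, Lck and Lat did not pass the test. Ddx3y, a Y-linked gene, had 0 reads in all 14 libraries.

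MiR-142 was missing in BC CML, so the mature miR-142 sequences (RefSeq, GRCm38.p6) and their matches in these genes are shown first. A microRNA pairs with a 3′ untranslated region (3′UTR) mainly through its seed, bases 2 to 8, printed in capitals.
mmu-miR-142a-5p: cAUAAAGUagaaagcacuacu
mmu-miR-142a-3p: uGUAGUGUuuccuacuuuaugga
They lie on the plus strand of chromosome 11, at 87756867 to 87756887 and 87756903 to 87756925.

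Matches were looked for in the longest 3′UTR of each gene's protein-coding transcripts (GENCODE M21, the same genome build as the counts). A match was either an 8mer (the complement of bases 2 to 8 followed by an A), a 7mer-m8 (the same without the A) or a 7mer-A1 (the complement of bases 2 to 7 followed by an A). Ctnnb1, Apc, Gsk3b and Ctnnd1 held at least 1 match. Those of Ctnnb1, Gsk3b and Ctnnd1 are shown with the match in capitals and its flanks in lower case.
Ctnnb1, miR-142a-5p 7mer-m8: gaacaaaaACTTTATcggggatac
Gsk3b, miR-142a-5p 8mer: atctgctgACTTTATAggaaaact
Gsk3b, miR-142a-3p 7mer-m8: tcctatttACACTACtgattgttc
Ctnnd1, miR-142a-5p 7mer-A1: tcttcgtcCTTTATAagcttgtcc
The match in Ctnnb1 is at bases 817 to 823 of a 3′UTR of 990 bases (chromosome 9, 120960334 to 120960340, plus strand). Those in Gsk3b are at bases 1276 to 1283 and 4100 to 4106 of 5515 bases (chromosome 16, 38241845 to 38241852 and 38244669 to 38244675, plus strand). The match in Ctnnd1 is at bases 936 to 942 of 2821 bases (chromosome 2, 84601950 to 84601956, minus strand).

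Apc had the most matches of the 10 genes, 2 to miR-142a-3p and 2 to miR-142a-5p in a 3′UTR of 3971 bases, and 1 of the former was an 8mer at bases 301 to 308 (chromosome 18, 34318882 to 34318889). Axin1, Axin2, Cdh1, Ctnna1, Ctnnbip1 and Tcf7l2 had 0 matches of these kinds in 3′UTRs of 750 to 2239 bases. Of the 11501 tested genes with a 3′UTR, 30.5% held a match to either arm. Of the 347 with a miR-142a-3p 8mer, 200 were higher and 53 lower in BC CML, beside 32.6% higher and 32.7% lower of all genes tested. Of the 596 with a miR-142a-5p 8mer, 250 were higher and 162 lower, and of the 2687 with a miR-142a-5p match of any of these kinds, 1074 were higher and 764 lower. The 3′UTRs that held a miR-142a-3p 8mer had a median length of 2479 bases, compared with 1173 bases for all. A match is a description of the sequence and was not shown to be bound here.

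Of the 10 genes, 7 were higher, 2 were lower and 1 did not pass the test in BC CML compared with CP CML. Of all genes tested, 65.2% passed, so passing the test was common in these libraries. The median log2 fold change of the 10 genes was 0.60, and that of all genes tested was −0.01. Genes that passed with a change of at least 2-fold were rarer, 10.1% higher and 2.87% lower, and 4 of the 10 genes were among the former (Cdh1, Ctnnb1, Ctnna1 and Ctnnbip1) and 1 among the latter (Axin2). In 7 of the 10 genes the groups did not overlap, as in 36.9% of all genes. Since the 10 genes were listed with earlier results of these data in view, these counts describe them and do not test them as a group.

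**Figure D1:**
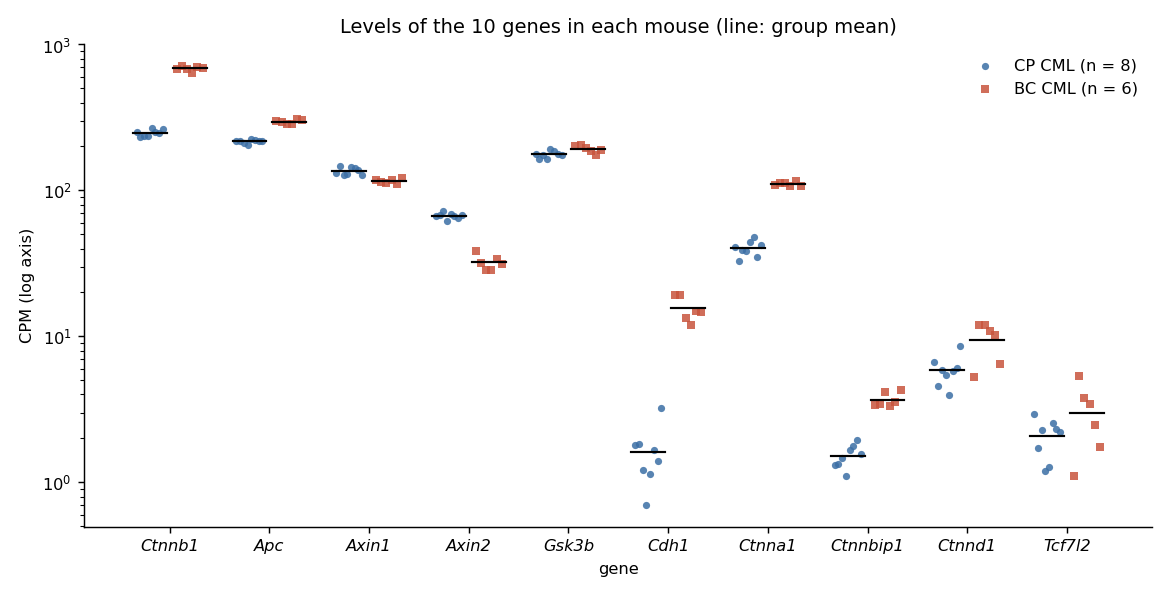
Level of each of the 10 genes in CPM (log axis) in each CP CML mouse (circles, n = 8) and BC CML mouse (squares, n = 6), with a line at the group mean. The groups are apart for Ctnnb1, Apc, Cdh1, Ctnna1 and Ctnnbip1 (BC CML above) and for Axin1 and Axin2 (BC CML below), and overlap for Gsk3b, Ctnnd1 and Tcf7l2.

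Ctnnb1, the gene of β-catenin itself (mm10 chromosome 9, 120933400 to 120960507, plus strand), rose in every mouse of the BC CML group. Its level was between 232 and 269 CPM in CP CML (median 249) and between 641 and 713 CPM in BC CML (median 689). All 6 BC CML mice were thus far above the highest CP CML mouse. The mean was 249 ± 13.2 CPM in CP CML and 685 ± 25.1 CPM in BC CML (SD), a log2 fold change of 1.46 ± 0.04 (SE), or 2.76-fold, with an adjusted p of 3.6e-15 by edgeR's quasi-likelihood test. The coefficient of variation between mice was 5.3% in CP CML and 3.67% in BC CML, and the counting error of the reads alone would give 1.51% and 0.892%. Each library held between 3794 and 13497 Ctnnb1 reads, so depth did not limit this value.

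Ctnna1, the gene of αE-catenin, which binds β-catenin and holds it to actin, rose by nearly the same factor. The gene spans 35118912 to 35254775 of chromosome 18 (plus strand). Its level ran from 32.7 to 47.9 CPM in CP CML (median 40) and from 107 to 115 CPM in BC CML (median 109.9), with no overlap. Its log2 fold change was 1.46 ± 0.06 (adjusted p = 2.7e-12 by edgeR). Ctnna1 varied more between CP CML mice (12.1%) than between BC CML mice (3.0%).

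To compare genes with each other within a library, CPM was divided by the gene length in kilobases given with the counts. On this scale Ctnnb1 was 6.35 ± 0.61 times Ctnna1 in CP CML and 6.32 ± 0.22 times in BC CML (SD). The difference was −0.04 (95% interval −0.592 to 0.528), with p = 0.93 (exact permutation test, two-sided, 3003 splits of the mice). Ctnnb1 and Ctnna1 thus each passed the test with a fold change near 2.75, and a difference between the 2 changes was not detected.

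Cdh1, the gene of E-cadherin, had the largest change of the 10 genes, and the size of its log2 fold change lay at the 99.1 percentile of all genes tested. The gene spans 106603350 to 106670247 of chromosome 8 (plus strand). Its level was low in CP CML, from 0.702 to 3.21 CPM (median 1.54), and ran from 12 to 19.3 CPM in BC CML (median 14.8). The lowest BC CML mouse was well above the highest CP CML mouse. Cdh1 rose by 3.27 ± 0.22 on the log2 scale, or 9.67-fold (adjusted p = 1.1e-09 by edgeR). These levels rested on 14 to 51 reads per library in CP CML and 230 to 348 reads in BC CML. Between CP CML mice the coefficient of variation was 45.8%, with 18.9% from counting alone, and between BC CML mice 19.5%, with 5.93% from counting alone.

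E-cadherin is best known from epithelium, so the epithelial markers were read beside it. Of 6 such markers, Krt8, Krt18, Krt19, Cldn7 and Ocln were under 1 CPM in every library, with Krt19 and Cldn7 at 0 reads. The one tested, Epcam, was lower in BC CML, and the summed level of the 6 was 5.84 to 7.05 CPM in CP CML and 1.57 to 3.95 CPM in BC CML, nearly all of it from Epcam. The part of epithelial cells in Cdh1 was not tested.

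Ctnnd1, the gene of p120-catenin, which holds cadherins at the membrane, rose less and varied more. Its row covers chromosome 2, 84600781 to 84650740, minus strand. Its level ran from 3.95 to 8.62 CPM in CP CML (median 5.85) and from 5.27 to 12 CPM in BC CML (median 10.5). BC CML replicates 1 and 6 had 5.27 and 6.48 CPM, inside the CP CML range, and the other 4 had 10.2 to 12 CPM, above it. Ctnnd1 rose by 0.68 ± 0.19 on the log2 scale (adjusted p = 0.0051 by edgeR). The coefficient of variation of 30.4% between BC CML mice compared with 7.61% from counting alone.

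**Figure D2:**
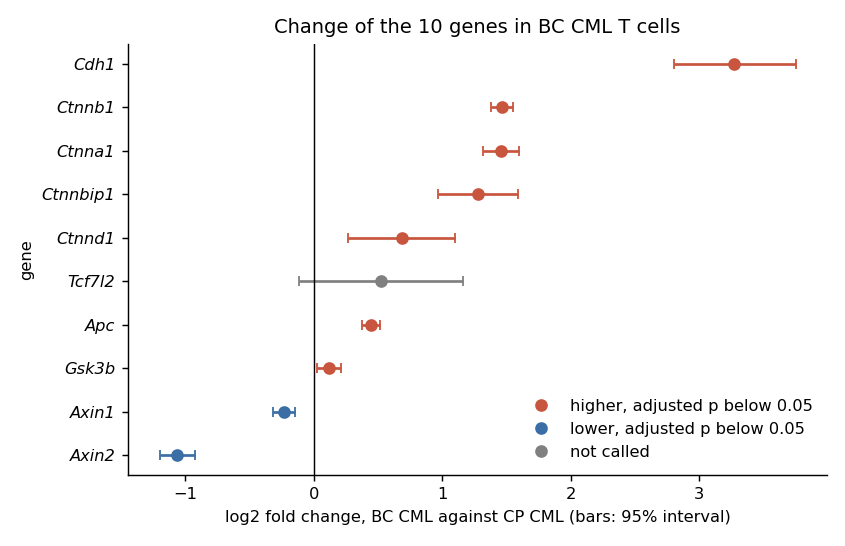
Log2 fold change of each of the 10 genes in BC CML (n = 6) against CP CML (n = 8), with its 95% interval. Cdh1 stands highest at 3.27, Ctnnb1 and Ctnna1 share 1.46, Axin2 stands lowest at −1.06, and the interval of Tcf7l2 reaches below 0.

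The scaffolds of the destruction complex moved in opposite directions. Apc, the gene of the large scaffold lost in many colon cancers (chromosome 18, 34220984 to 34322190, plus strand), rose. Its level was 206 to 224 CPM in CP CML (median 217) and 283 to 308 CPM in BC CML (median 297), without overlap. Its log2 fold change of 0.45 ± 0.03 was small (1.36-fold) but large beside the spread between mice, which was 2.77% in CP CML and 3.49% in BC CML (adjusted p = 1.2e-09 by edgeR). The strand setting of the counting is not given in the sources used here. The 5′ end of Apc overlaps Gm10548 on the opposite strand over 789 bases, and Gm10548 had 70 to 118 reads per library beside at least 3458 reads of Apc.

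Axin1, the gene of the scaffold that binds GSK3β, APC and β-catenin, fell slightly. Its row covers chromosome 17, 26138686 to 26195811, plus strand. Its level was 128 to 147 CPM in CP CML (median 135) and 111 to 121 CPM in BC CML (median 116). No BC CML mouse reached the lowest CP CML mouse. The log2 fold change was −0.23 ± 0.04 (adjusted p = 6.8e-05 by edgeR).

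Axin2, the gene of the second axin and a widely used reporter of β-catenin and TCF activity, fell more. Its row covers chromosome 11, 108920349 to 108950781, plus strand. Its level was 61.3 to 72.8 CPM in CP CML (median 67.5) and 28.6 to 38.8 CPM in BC CML (median 31.5). All 6 BC CML mice were well below the lowest CP CML mouse. The log2 fold change was −1.06 ± 0.06, a fall to 0.479 of the CP CML level (adjusted p = 1.0e-10 by edgeR). Axin2 thus fell in the same libraries in which Ctnnb1 rose.

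Gsk3b, the gene of the kinase that marks β-catenin for degradation, changed least. The gene spans 38089001 to 38246079 of chromosome 16 (plus strand). Its level was 164 to 193 CPM in CP CML (median 176) and 175 to 203 CPM in BC CML (median 192), and the groups overlapped. The log2 fold change of 0.12 ± 0.04 passed the test (adjusted p = 0.022 by edgeR). It no longer passed without BC CML replicate 1 (0.11, adjusted p = 0.054) or without BC CML replicate 2 (0.10, adjusted p = 0.059).

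Within libraries, these proportions shifted. Per kilobase, Ctnnb1 was 3.63 ± 0.15 times Apc in CP CML and 7.34 ± 0.22 times in BC CML, a difference of 3.71 (95% interval 3.5 to 3.93). Axin2 made up 30.3% ± 1.6 of the 2 axins in CP CML and 19.6% ± 1.8 in BC CML, a difference of −10.7 percentage points (95% interval −12.7 to −8.67). In both, all 6 BC CML mice were on one side of all 8 CP CML mice. The exact two-sided permutation p was 0.000666 for each, the smallest that 3003 splits can give, and 0.00133 after adjustment over the 4 proportions tested.

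**Figure D3:**
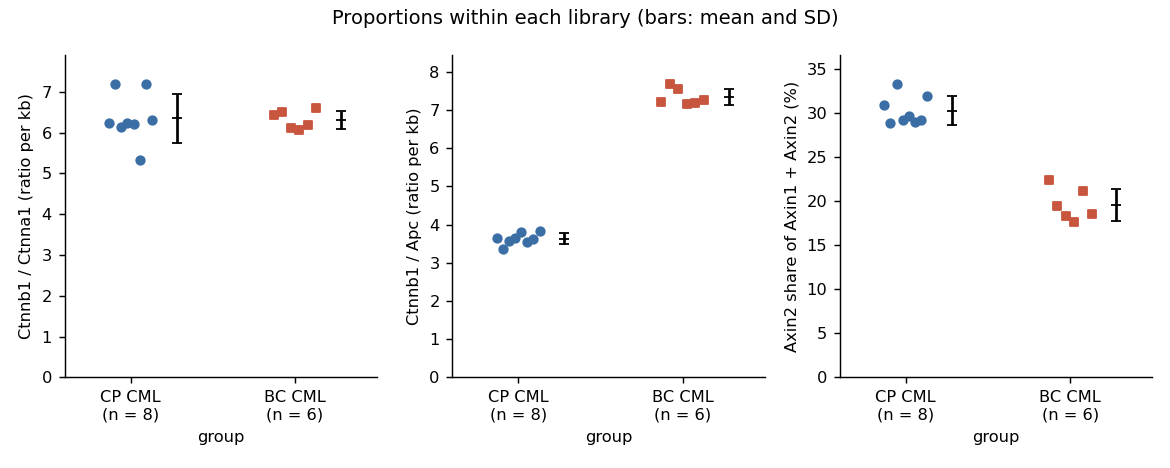
Proportions within each library on the scale of CPM per kilobase, for CP CML (circles, n = 8) and BC CML (squares, n = 6), with mean and SD: Ctnnb1 to Ctnna1, Ctnnb1 to Apc, and Axin2 as a percentage of Axin1 plus Axin2. The first overlaps between groups (means 6.35 and 6.32), and the other two are apart (3.63 and 7.34, and 30.3% and 19.6%).

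Of the genes that act on β-catenin at TCF sites, Ctnnbip1 rose. It encodes ICAT, a small protein that binds β-catenin and keeps it from TCF factors, and lies on chromosome 4 (149518241 to 149566437, plus strand). Its level was low, 1.1 to 1.96 CPM in CP CML (median 1.53) and 3.35 to 4.27 CPM in BC CML (median 3.5), without overlap. Ctnnbip1 rose by 1.28 ± 0.14 on the log2 scale (adjusted p = 4.3e-07 by edgeR). It rested on 22 to 33 reads per library in CP CML and 55 to 83 reads in BC CML, and counting alone gave 19.4% and 12.1% of error per library. The row of Ctnnbip1 lies within the span listed for Eno1b on the same strand, which had 33 to 76 reads per library. That span covers 102203539 bases, and GENCODE places Eno1b on chromosome 18 (48045335 to 48048412).

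Tcf7l2, the gene of TCF4, was the 1 of the 10 genes that did not pass the test. Its row covers chromosome 19, 55741810 to 55933655, plus strand. Its level was 1.2 to 2.95 CPM in CP CML (median 2.25) and 1.11 to 5.36 CPM in BC CML (median 2.97). The groups overlapped, and BC CML replicate 1 was the lowest of all 14 libraries while BC CML replicate 2 was the highest. The log2 fold change was 0.53 ± 0.29 (95% interval −0.113 to 1.16, adjusted p = 0.13 by edgeR), so a 2-fold rise was not excluded at this depth of 20 to 86 reads per library. Without BC CML replicate 1 it was 0.70 with an adjusted p of 0.026 by edgeR. Leaving out any 1 of the other 13 libraries did not make it pass, and the lowest value was 0.29.

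Tcf7l2 was a minor member of its family in these T cells. Per kilobase, Tcf7 made up 93.9% ± 0.3 and 94.0% ± 0.5 of the 4 TCF/LEF genes in CP CML and BC CML (SD), Lef1 5.93% ± 0.33 and 5.81% ± 0.46, and Tcf7l2 0.0335% ± 0.0101 and 0.0805% ± 0.0483. The share of Tcf7l2 differed between groups by 0.0470 percentage points (95% interval 0.0131 to 0.0851), with an exact two-sided permutation p of 0.0133 and 0.0178 adjusted over the 4 proportions, although the groups overlapped. Without BC CML replicate 2, the library with most Tcf7l2, the difference was 0.0305 percentage points (adjusted p = 0.041, exact permutation test). The sum the share is taken from was mostly Tcf7, at 717 ± 52.3 CPM per kilobase in CP CML and 451 ± 48.3 in BC CML (SD), beside 0.256 ± 0.076 and 0.371 ± 0.190 of Tcf7l2, and the parts of the 2 genes in the difference were not tested. Tcf7 itself, the gene of TCF1, fell, with 1793 to 2273 CPM in CP CML and 1058 to 1394 CPM in BC CML (log2 fold change −0.67 ± 0.06, adjusted p = 7.1e-08 by edgeR). Lef1 fell likewise, with 336 to 425 CPM and 198 to 291 CPM (−0.70 ± 0.08, adjusted p = 4.6e-07 by edgeR). The groups were apart for both genes.

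Ranked per kilobase, Ctnnb1 stood first in both groups, at 60.9 ± 3.2 CPM per kilobase in CP CML and 168 ± 6.1 in BC CML (SD), and Axin1 second, at 36.2 ± 2.0 and 30.8 ± 1.0. In CP CML they were followed by Gsk3b (18.2), Apc (16.8), Axin2 (15.7) and Ctnna1 (9.67), then by Ctnnd1 (0.894), Ctnnbip1 (0.549), Cdh1 (0.368) and Tcf7l2 (0.256). Ranges of neighbours overlapped between Gsk3b and Apc, Apc and Axin2, and among the last 4 genes, so those orders were not resolved. In BC CML, Ctnna1 came next (26.6), ahead of Apc (22.9), Gsk3b (19.8) and Axin2 (7.51). They were followed by Cdh1 (3.54), Ctnnd1 (1.44), Ctnnbip1 (1.33) and Tcf7l2 (0.371), and there the ranges of neighbours overlapped for Ctnnd1 and Ctnnbip1 only.

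The sorted cells differed between groups in more than miR-142, and bulk libraries alone cannot tell fewer cells of a type from less RNA per cell. By flow cytometry of spleen T cells from the same models, the paper reports smaller proportions of naive and regulatory T cells and larger ones of effector T cells. All 7 naive T cell markers, Tcf7 and Lef1 among them, were lower in BC CML, and their summed level was 4890 to 6238 CPM in CP CML and 2683 to 3852 CPM in BC CML. Of 12 effector and memory T cell markers, 10 were higher and 1 lower (summed 1029 to 1259 and 1980 to 2754 CPM). All 6 natural killer cell markers were higher (223 to 279 and 588 to 837 CPM). Of these, Klra8 had 0 to 5 reads per library in CP CML and 185 to 326 in BC CML. Klra8 was named after its values were seen, and the cause of its near absence in CP CML was not tested. Of 12 neutrophil and monocyte markers, 11 were higher, summed at 75.8 to 728 CPM in CP CML and 839 to 2210 CPM in BC CML, and of 8 B cell markers 6 were higher, with overlapping sums. Of 8 dendritic cell markers 6 were tested and 3 were higher (31.6 to 45.3 and 56.0 to 146 CPM). Of 9 basophil, mast cell and progenitor markers 6 were tested and 3 were higher (6.92 to 18.4 and 23.2 to 63.7 CPM). Of 12 erythroid markers 9 were in the table and 7 were tested, with 3 higher and overlapping sums over the 9 (153 to 195 and 181 to 235 CPM). Megakaryocyte and platelet markers summed to at most 6.84 CPM in any library, with Pf4, Ppbp and Gp9 under 1 CPM throughout, and the sums of 8 endothelial and stromal markers overlapped (145 to 183 and 133 to 186 CPM). The part of these cells in the levels of the 10 genes was not tested.

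The values of the low genes beside the neutrophil and monocyte sum were as follows. Within CP CML, replicate 4 had the lowest sum, 75.8 CPM, and the lowest Cdh1, 0.702 CPM, and replicate 2 had the second highest of both, 519 and 1.83 CPM. CP CML replicate 8 had the highest sum of its group, 728 CPM, and the highest Cdh1 and Ctnnd1 of its group, 3.21 and 8.62 CPM. Within BC CML, replicate 1 had the lowest sum, 839 CPM, with 19.3 CPM of Cdh1 and 5.27 CPM of Ctnnd1. BC CML replicate 6 had the highest sum, 2210 CPM, with 14.7 CPM of Cdh1, 6.48 CPM of Ctnnd1 and 1.75 CPM of Tcf7l2. The part of these cells in the 3 genes was not tested. In a choice made after seeing the data, CP CML replicate 8, with the highest myeloid sum of its group, and BC CML replicates 2 and 6, with the highest B cell sums of theirs, were left out. Without them 6 of the 10 genes were higher and 2 lower. Cdh1 then had a log2 fold change of 3.41, Ctnnb1 1.45 and Axin2 −1.05, and Gsk3b no longer passed (0.10, adjusted p = 0.12 by edgeR). In the libraries kept, the neutrophil and monocyte sums were still at most 519 CPM in CP CML and at least 839 CPM in BC CML. This fit therefore could not decide the part of those cells.

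**Figure D4:**
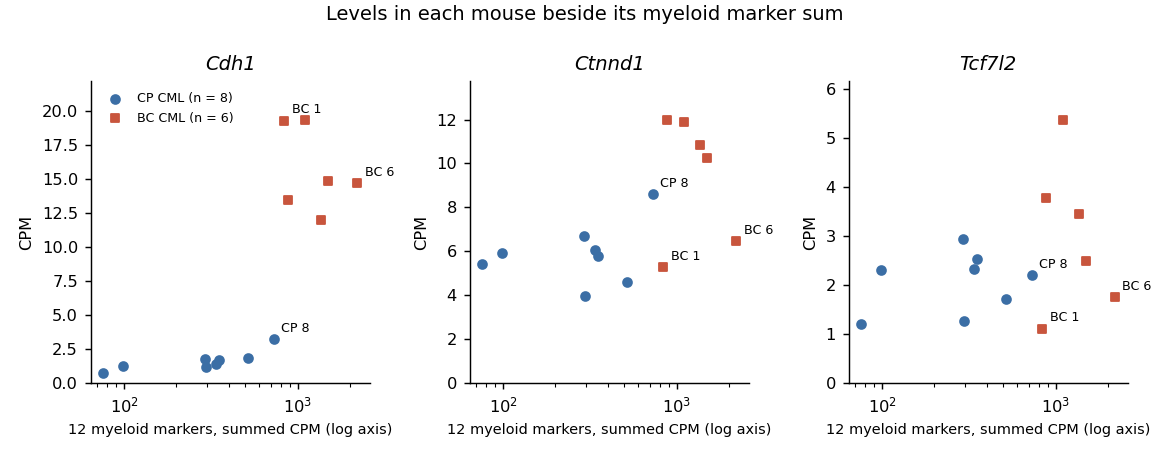
CPM of Cdh1, Ctnnd1 and Tcf7l2 in each mouse against the summed CPM of 12 neutrophil and monocyte markers (log axis), for CP CML (circles, n = 8) and BC CML (squares, n = 6), with 3 libraries named. In CP CML the mice with the lowest and the highest sum (75.8 and 728 CPM) had the lowest and the highest Cdh1 (0.702 and 3.21 CPM), and in BC CML those with the lowest and the highest sum (839 and 2210 CPM) had 19.3 and 14.7 CPM.

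The rest of the pathway was read from lists of its parts. Of all genes tested, 32.6% were higher and 32.7% lower, 65.2% in all, and in the 5 lists with more than 10 tested genes 68.8% to 88.0% passed, so a gene of a list that passed was not unusual. Of 25 genes for WNT ligands, their secretion and R-spondins, 21 had too few reads to be tested and 9 of these had 0 reads in every library. Both genes of this list that passed were higher. Wls, which carries WNT proteins to the cell surface, was 41.6 to 48.8 CPM in CP CML and 86.0 to 103 CPM in BC CML (log2 fold change 1.13 ± 0.05, adjusted p = 2.1e-12 by edgeR). The other was Wnt10b, named after its values were seen, at 0.165 CPM in CP CML and 2.94 CPM in BC CML on average (adjusted p = 3.9e-07 by edgeR).

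Of 37 receptor, receptor turnover, Dishevelled and extracellular inhibitor genes, 16 were tested, with 8 higher, 3 lower and a median log2 fold change of 0.12. Fzd6, a Frizzled receptor, was 0.446 to 1.47 CPM in CP CML and 4.61 to 7.27 CPM in BC CML (2.95 ± 0.21, adjusted p = 1.4e-09 by edgeR). Ryk, a WNT co-receptor, had a log2 fold change of 0.80 ± 0.17, with overlapping groups. Rnf43, a ubiquitin ligase that removes Frizzled receptors from the surface, was 8.70 to 15.8 CPM in CP CML and 0.748 to 1.55 CPM in BC CML, without overlap (−3.50 ± 0.17, adjusted p = 9.9e-12 by edgeR). Rnf43 neighbours the deleted gene, with 21324 bases between its end and the start of Mir142 on the same strand of chromosome 11, and the part of the deletion itself in this value was not tested. Kremen2, a receptor for DKK inhibitors, fell, with 1.65 to 4.29 CPM and 0.812 to 1.36 CPM (−1.30 ± 0.20, adjusted p = 2.1e-05 by edgeR).

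Around the destruction complex, 21 of 22 further genes were tested, with 8 higher, 8 lower and a median log2 fold change of 0.00. Skp1a, a subunit of the ubiquitin ligase that acts on phosphorylated β-catenin, rose, with 154 to 172 CPM in CP CML and 268 to 316 CPM in BC CML (0.90 ± 0.04, adjusted p = 4.0e-12 by edgeR). Csnk1g3, a casein kinase 1 isoform, rose by 0.66 ± 0.04. Frat1 and Frat2, whose products bind GSK3 and compete with axin for it, fell by 0.99 and 0.85 on the log2 scale. Both Frat genes had groups that did not overlap.

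Of 27 TCF/LEF factors and nuclear partners of β-catenin, 25 were tested, with 7 higher, 15 lower and a median of −0.12. Tle1 and Tle2, genes of Groucho co-repressors that bind TCF factors, moved apart. Tle1 was 13.1 to 20.3 CPM in CP CML and 5.86 to 9.18 CPM in BC CML (−1.14 ± 0.11, adjusted p = 1.1e-07 by edgeR). Tle2 was 1.23 to 2.96 CPM and 2.87 to 6.79 CPM (1.13 ± 0.22, adjusted p = 0.00024 by edgeR). Tbl1xr1, whose product works with β-catenin and with co-repressors, rose by 0.46 ± 0.04.

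**Figure D5:**
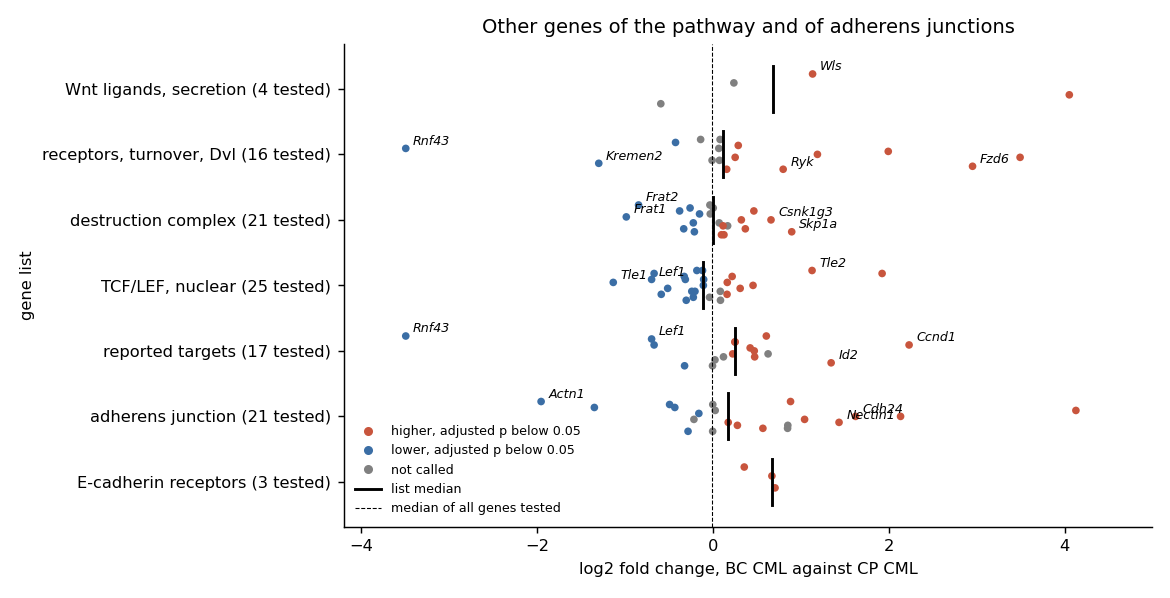
Log2 fold change in BC CML (n = 6) against CP CML (n = 8) of every tested gene in 7 lists of the pathway and of junctions, with the list median (thick line) and the median of all genes tested (dashed line). Higher and lower genes stand on both sides of 0 in the receptor, destruction complex, nuclear, target and junction lists.

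Of 27 genes reported as targets of TCF and β-catenin in other tissues, 17 were tested, with 9 higher, 4 lower and a median of 0.25. The higher genes included Ccnd1, the gene of cyclin D1, at 0.488 to 3.6 CPM in CP CML and 2.09 to 13 CPM in BC CML (2.23 ± 0.52, adjusted p = 0.0016 by edgeR, groups overlapping). Its 2 highest levels, 13 and 9.41 CPM, were in BC CML replicates 6 and 2, which had the highest B cell marker sums of all libraries (454 and 265 CPM). In CP CML the 2 highest, 3.6 and 3.08 CPM, were in replicates 1 and 8, which had the highest such sums of that group (153.3 and 133.5 CPM). Without CP CML replicate 8 and BC CML replicates 2 and 6 the log2 fold change was 1.87 (adjusted p = 0.0068 by edgeR), and the part of B cells in it was not tested. Id2, an inhibitor of E protein transcription factors, was 127 to 155 CPM and 312 to 382 CPM, without overlap. The lower genes included Lef1 and Rnf43, the neighbour of Mir142, given above. Axin2, held apart as one of the 10 genes, was lower too, so the reported targets did not move in 1 direction. In promoter windows of 300 bases (250 before and 50 after the start, RefSeq), the TCF/LEF motif CTTTGAT or its reverse complement was found in 0 of the 6 of these 10 genes that had a window, and in 4.29% of 27025 genes. Of the 9548 tested genes with a window, 2.96% held it. No match says only that these letters are not in the window.

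Of 36 other cadherin, catenin and junction genes, 21 were tested, with 9 higher, 6 lower and a median of 0.17. Cdh24, a type II cadherin gene, was 11.1 to 16.3 CPM in CP CML and 34.0 to 55.7 CPM in BC CML (1.62 ± 0.10, adjusted p = 5.3e-10 by edgeR). Nectin1, the gene of an immunoglobulin-like junction receptor, rose, with 0.611 to 1.72 CPM and 1.73 to 4.6 CPM (1.43 ± 0.24, adjusted p = 4.0e-05 by edgeR). Among lower genes with an average log2 CPM of at least 1, the 2 with the largest change both encode proteins that bind actin beside α-catenin. Actn1, the gene of α-actinin-1, fell, with 438 to 502 CPM in CP CML and 112 to 141 CPM in BC CML (−1.96 ± 0.06, adjusted p = 6.4e-15 by edgeR). Vcl, the gene of vinculin, fell, with 29.2 to 40.3 CPM and 20.5 to 27.2 CPM (−0.49 ± 0.08, adjusted p = 4.6e-05 by edgeR).

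Lymphocytes meet E-cadherin through CD103 (αE, Itgae, paired with β7, Itgb7) and KLRG1, and all 3 genes of these receptors were higher. Itgb7 was 441 to 601 CPM in CP CML and 794 to 988 CPM in BC CML, without overlap (0.71 ± 0.07, adjusted p = 2.8e-07 by edgeR). Itgae was 76.8 to 102 CPM and 95.4 to 138 CPM (0.36 ± 0.08, adjusted p = 0.0010 by edgeR), and Klrg1 was 9.37 to 12.9 CPM and 12.7 to 19.8 CPM (0.67 ± 0.10, adjusted p = 2.2e-05 by edgeR). The ranges of these 2 genes overlapped. Of all genes tested, 32.6% were higher. Cdh1 and the genes of these receptors were higher in the same libraries, and in bulk RNA this does not place them in the same cells. In these libraries all 6 natural killer cell markers and 3 of the 6 dendritic cell markers tested were higher too.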

How the data were processed

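The authors used Trimmomatic for adapters and FASTP for polyA, aligned to mm10 with STAR 2.6.0, counted reads per gene with HTSeq 0.11.1 and deposited raw read counts without normalization, 1 column per mouse (14 columns). The annotation and strand setting are not given in the sources used here, so overlapping genes may share reads. The deposited table also gives each gene's length, which was used only for values per kilobase.

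Columns were matched to mice by the sample labels, and replicate numbers come from the titles. Counts were filtered by filterByExpr on the group (12248 genes kept), scaled by TMM and tested with edgeR 4.0.16 in R 4.3.3 (glmQLFit with robust estimation, glmQLFTest, no covariate, Benjamini-Hochberg over all genes, threshold 0.05). The standard error is the log2 fold change divided by the square root of F, and intervals use 12 residual degrees of freedom. Proportions within a library were tested by exact permutation of the mice (two-sided, scipy 1.17.1), with Benjamini-Hochberg adjustment over 4 proportions, and their intervals hold the shifts that test did not reject. Counting errors cover sampling of reads only. The fits were tested on simulated data with far fewer changed genes than passed here. Changes across as many genes as here were not simulated. Libraries of a group were compared in pairs, and none was counted as a repeat (chi-square per degree of freedom 3.08 to 23.1).

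Other settings tried were DESeq2 1.42.0, edgeR's likelihood ratio test, no filter or a filter of over 1 CPM in 6 samples, scaling by library size alone or by RLE, a replicate block, and each library left out. For proportions they were reads without division by length, log2 of the ratio and each library left out. Leaving out 3 libraries high in B cell or myeloid markers was added after seeing the data. The 10 genes and all lists were chosen with earlier results of these data known. Of 292 list entries 289 were in the table. Genes outside the 10 were named by a rule: Mir142, Tcf7, Lef1, Itgae, Itgb7, Klrg1, and in each pathway list the 2 higher and 2 lower genes with the largest change among those past the threshold with an average log2 CPM of at least 1.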

Additional observations from a re-analysis of the deposited data

Results flagged for a closer look

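Cdh1 in CP CML replicate 8 stood apart from its group, at 3.21 CPM where the next highest CP CML mouse had 1.83 CPM. The gap was 0.549 of the range of the group. The same library had the highest neutrophil and monocyte marker sum among CP CML mice (728 CPM), and the part of those cells in its Cdh1 level was not tested. Without it the log2 fold change of Cdh1 was 3.48.

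The summed megakaryocyte and platelet markers in BC CML replicate 6 stood apart from their group, at 6.84 CPM where the next mouse had 3.5 CPM. Chance flags about 1 in 20 groups, and 2 of 98 groups of values were flagged here.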

How the results depend on the processing

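Of the 10 genes, 8 kept their direction and their side of the threshold under every alternative, and Gsk3b and Tcf7l2 did not. Gsk3b no longer passed without 3 libraries high in B cell or myeloid markers (CP CML replicate 8, BC CML replicates 2 and 6) (0.10, adjusted p = 0.12) or with the replicate number as a block (0.12, adjusted p = 0.095), and ranged from 0.10 to 0.14 with each library left out. Tcf7l2 ranged from 0.29 to 0.70 with each library left out. For both genes the cause was not tested. The replicate numbers name different animals (mean correlation of same-numbered libraries −0.02 over 6 pairs), and the block lowered the calls over all genes from 7986 to 7318 and the higher calls among reported targets from 9 to 4. Without a filter, 14 and not 8 receptor genes were higher, since more genes were tested. With each library left out, 0 to 1 Wnt ligand or secretion genes were lower, 1 without CP CML replicate 6 or BC CML replicate 1. The difference in the ratio of Ctnnb1 to Ctnna1 ranged from −0.184 to 0.0842 with each library left out and changed sign. Scaling moved the median log2 fold change of all genes between −0.018 and −0.0026. Other counts of calls in the lists stayed within 1.5 times their value. Depth limits Cdh1 in CP CML, Ctnnbip1 and Tcf7l2, which had as few as 14, 22 and 20 reads in a library.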
